A study of Mus musculus with 32 samples.

Results

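Claudins are the membrane proteins that set which ions pass between the cells of an epithelium, and each segment of the nephron carries its own combination. They span the membrane at the tight junction, where their extracellular loops either form charge-selective pores or seal the gap. Described here are 10 of the 15780 named genes on the arrays, namely Cldn1, Cldn2, Cldn3, Cldn4, Cldn7, Cldn8, Cldn10, Cldn14, Cldn16 and Cldn19, chosen by symbol as Cldn1, which is known from injured glomeruli, and 9 claudins of particular nephron segments. A further 9 claudins were measured and serve as background, together with the claudin domain genes Cldnd1 and Cldnd2. As general knowledge, Cldn2 forms a cation and water pore of the proximal tubule, Cldn10 has an anion-selective isoform in the proximal tubule and a cation-selective isoform in the thick ascending limb, and Cldn16 and Cldn19 together form the pore through which magnesium and calcium are reabsorbed in the thick ascending limb. Cldn14 blocks that pore. Cldn3, Cldn4, Cldn7 and Cldn8 belong to the distal nephron and collecting duct, where Cldn4 and Cldn8 act together in chloride passage. Cldn1 marks the parietal cells of Bowman's capsule and appears in podocytes in mouse models of glomerular disease.

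Whole-kidney RNA of 32 mice with a lupus-prone background was measured, 1 kidney per array, after the kidneys had been perfused with saline. NZB/W mice gave 26 kidneys. Of these, 7 came from untreated mice aged 30 weeks that had no proteinuria, and 8 were taken in early remission after triple therapy, which is cyclophosphamide (CTX), CTLA4Ig and anti-CD154. Late remission was sampled in 6 NZB/W mice after the same triple therapy and in 5 after Ad-TACI-Ig, an adenovirus that makes the animal secrete a decoy receptor for BAFF and APRIL, given with CTLA4Ig. The other 6 kidneys came from NZM2410 mice in remission after Ad-BAFF-R-Ig, an adenovirus that encodes a decoy receptor for BAFF. The labels give an age for the 30-week group alone, and the study's methods describe the NZB/W mice as female. The separate mice are the replicates, although the same mouse code stands on a 30-week and an early-remission sample (30-week kidney 6 and early-remission kidney 1). Kidneys with active nephritis are not analysed here, so no value below shows a change from nephritis to remission. All values are log2 expression values, with 1 probe set per gene, and levels are compared between kidneys for 1 gene and never between genes.

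Several properties of these arrays touch every result. The markers of each tubule segment were measured in every kidney, with mean log2 values of 10.91 to 11.96 for the 10 proximal tubule markers, 11.33 to 12.16 for the 6 thick ascending limb markers and 8.81 to 9.91 for the 7 principal cell markers. In whole-kidney RNA, fewer cells of a type and less RNA per cell cannot be told apart. The mean of each claudin in late remission after triple therapy differed by at most 0.00604 from its mean over the 12 kidneys taken at 30 weeks or after TACI-Ig, so those group means add no separate information. NZM2410 arrays had a wider spread of values (SD over genes of 2.12 to 2.18) than NZB/W arrays (1.91 to 2.04), and strain, agent and any batch cannot be told apart between them. NZM2410 kidney 3 and 30-week kidney 2 stood apart in several claudins, and results that rest on them are given with and without them. The Cldn14 probe set was dim, with values of 4.75 to 5.60 below the limit of 6.07 that left 10520 genes as not dim. Scores of tissues next to the kidney differed between groups, with adrenal cortex marker scores of 5.46 to 9.21 at 30 weeks, 5.37 to 5.62 after TACI-Ig and 5.25 to 5.53 in NZM2410 kidneys and adipose scores of 8.27 to 9.12, 7.20 to 9.06 and 6.12 to 7.83 in the same order, and their part in the results was not tested. Both Cldn10 isoforms are counted by 1 probe set.

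The genes lie at chr16:26356645-26371839 for Cldn1, chrX:139800808-139811386 for Cldn2, chr5:134986214-134987476 for Cldn3, chr5:134945123-134946934 for Cldn4, chr11:69964779-69967886 for Cldn7, chr16:88560826-88563183 for Cldn8, chr14:118787871-118874525 for Cldn10, chr16:93919031-94008837 for Cldn14, chr16:26463135-26482765 for Cldn16 and chr4:119255441-119262438 for Cldn19 (RefSeq, GRCm38.p6). Cldn3 and Cldn4 thus lie close together on chromosome 5, as do Cldn1 and Cldn16 on chromosome 16. The pairs that varied together from kidney to kidney were other ones, Cldn1 with Cldn10 and Cldn4 with Cldn7 among them, and the 250 bases before a transcript start of Cldn4 and of Cldn7 are printed because this pair shared a sequence motif there. RefSeq promoter entries were at hand for 9 of the 10 claudins, with 14 starts in all. Capitals mark CAGGTG or its reverse complement CACCTG, which is an E-box bound by Snail, a repressor of claudin genes in mouse epithelial cells. The stretches are chr5:134946935-134947184 on the minus strand for Cldn4 and chr11:69965171-69965420 on the plus strand for the second start of Cldn7, each written 5′ to 3′.
Cldn4: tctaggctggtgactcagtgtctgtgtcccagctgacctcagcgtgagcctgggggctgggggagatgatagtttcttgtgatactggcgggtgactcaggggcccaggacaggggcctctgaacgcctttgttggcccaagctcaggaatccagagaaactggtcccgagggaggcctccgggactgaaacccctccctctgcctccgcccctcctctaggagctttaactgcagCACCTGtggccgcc
Cldn7: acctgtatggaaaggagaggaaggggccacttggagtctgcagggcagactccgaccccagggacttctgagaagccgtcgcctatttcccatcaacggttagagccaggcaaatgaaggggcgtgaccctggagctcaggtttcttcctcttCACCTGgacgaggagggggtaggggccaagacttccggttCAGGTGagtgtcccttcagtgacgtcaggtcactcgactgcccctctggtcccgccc
CAGGTG, searched on both strands, began 14 bases before the start of Cldn4 and 97 and 57 bases before the second start of Cldn7, and 1 start of Cldn14 held it as well. In all, 3 of 14 claudin starts (21.4%) held it, against 17.2% of 32851 mouse starts. The first start of Cldn7 held no match. All matches are descriptions of the sequence only, and no binding was measured. Across NZB/W kidneys, Cldn14 was not called as correlated with Cldn4 (r = 0.286) or Cldn7 (r = 0.234).

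Among NZB/W kidneys, no claudin was called different between the 30-week group and any state of remission, or between states of remission. For late remission after triple therapy against 30 weeks or TACI-Ig, this is no separate evidence, since its means lay close to theirs pooled. In early remission against 30 weeks, 0 of 10 claudins passed limma's adjusted threshold of 0.05, where 0% of all genes did. At an unadjusted p under 0.05, Cldn1 alone differed, being lower, whereas 855 of all genes were higher and 528 were lower. The SAM-type test called 0 claudins and 52 genes. Cldn1 ran from 7.70 through a median of 8.08 to 8.53 at 30 weeks and from 7.53 through 7.81 to 8.34 in early remission, so the groups overlapped over most of their range. The mean was lower by a log2 difference of -0.26 ± 0.12 (SE; n = 8 and 7; limma adjusted p = 0.569). For the other 9 claudins, the differences lay between -0.09 (Cldn8) and 0.16 (Cldn19). No claudin separated the groups without overlap, which 0.133% of all genes did.

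**Figure D1:**
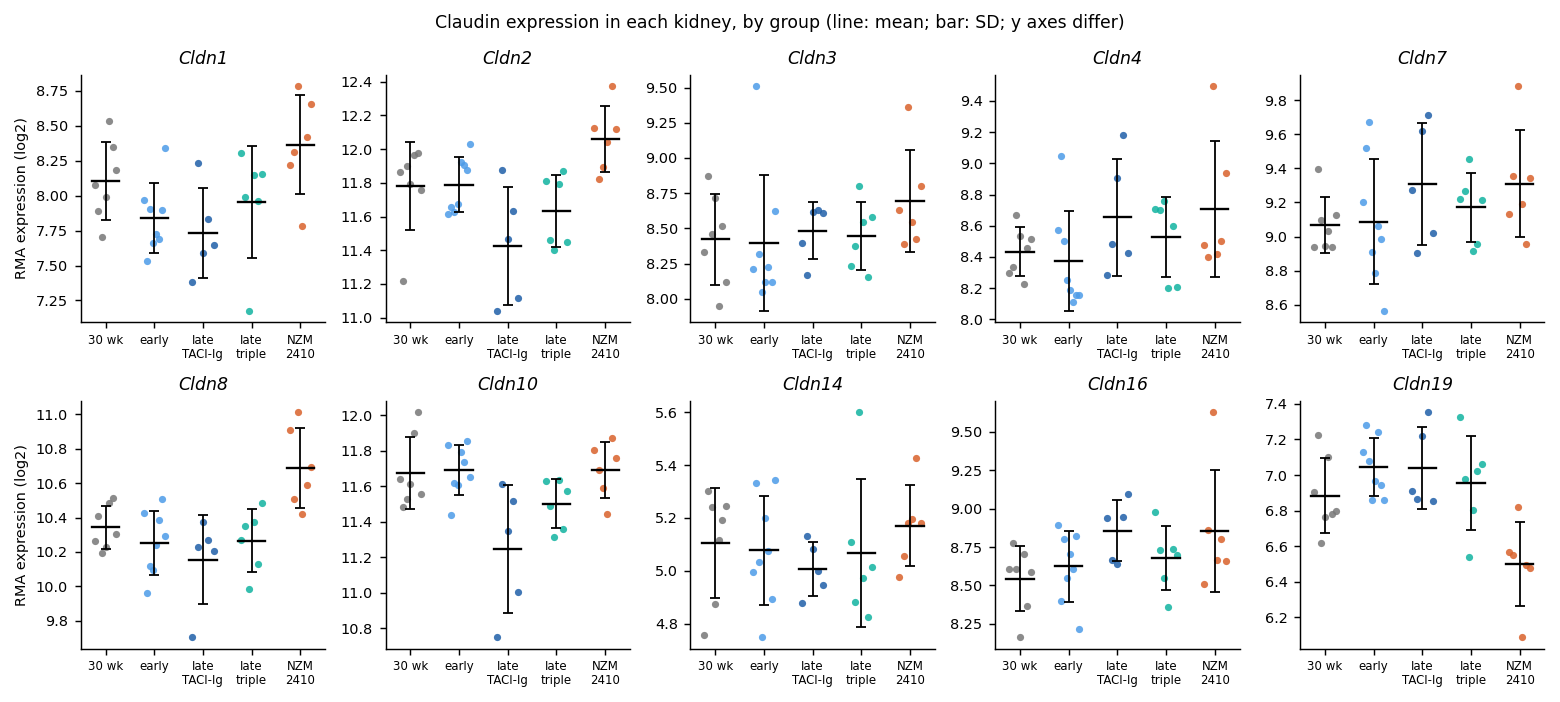
RMA log2 expression of each claudin (y axis, a scale of its own in each panel) in every kidney of the 5 groups, with points for kidneys, lines for group means and bars for the SD. Cldn19 is lowest in NZM2410 kidneys (6.09 to 6.82), Cldn8 is highest there (10.42 to 11.01), and NZM2410 kidney 3 is the highest of its group in Cldn3, Cldn4, Cldn7 and Cldn16.

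The largest shifts within NZB/W kidneys were in the mice given TACI-Ig with CTLA4Ig, where Cldn1, Cldn2 and Cldn10 had lower and Cldn16 had higher means than at 30 weeks. None passed the adjusted threshold (0 of 10, where 0% of all genes were called), and those 4 were under an unadjusted p of 0.05, where 1681 of all genes were higher and 1526 were lower. Cldn10 measured 10.75, 11.61, 11.35, 11.52 and 11.004 in TACI-Ig kidneys 1 to 5, and 11.48 to 12.02 with a median of 11.61 at 30 weeks. Kidneys 1, 3 and 5 lay below all 30-week kidneys, and kidneys 2 and 4 lay among them. The log2 difference was -0.43 ± 0.14 (SE; n = 5 and 7; limma adjusted p = 0.203), which is 0.742-fold. Cldn2 measured 11.04, 11.88, 11.47, 11.63 and 11.12 in the same kidneys against a 30-week range of 11.22 to 11.98 with a median of 11.86, so that kidneys 1 and 5 lay below all 30-week kidneys. Its difference was -0.36 ± 0.15 (SE; limma adjusted p = 0.228). Cldn1 measured 7.38, 8.23, 7.59, 7.83 and 7.64, again with kidneys 1, 3 and 5 below the lowest 30-week kidney (7.70), a difference of -0.37 ± 0.15 (SE; limma adjusted p = 0.218). Cldn16 measured 8.94, 8.66, 8.64, 8.94 and 9.10 against 8.16 to 8.78 with a median of 8.60 at 30 weeks, a difference of 0.31 ± 0.11 (SE; limma adjusted p = 0.203), and here kidneys 1, 4 and 5 lay above all 30-week kidneys. The groups overlapped in all 10 claudins, whereas 0.798% of all genes did not overlap. All but 2 of the 10 proximal tubule markers were lower, as Cldn2 and Cldn10 were, with a mean score of 11.20 (range 10.91 to 11.58) after TACI-Ig against 11.54 (11.06 to 11.69) at 30 weeks, while principal cell scores were 9.31 and 9.12 on average, and the part of either in these differences was not tested. This comparison turned on TACI-Ig kidneys 1 and 2, which had the lowest and the highest Cldn1, Cldn2 and Cldn10 of their group. Without kidney 1, the differences were -0.28 for Cldn1, -0.26 for Cldn2 and -0.31 for Cldn10, and none was called. Without kidney 2, limma called Cldn10 (-0.52, adjusted p = 0.045) and Cldn1 (-0.49, adjusted p = 0.0481) lower, with 1309 genes called in all. The SAM-type test on all kidneys called Cldn10 alone of the claudins (q = 0.045) with 1058 genes.

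The remaining NZB/W comparisons involve late remission after triple therapy. Against 30 weeks, 0 of 10 claudins and 0% of all genes were called, and 0% of genes separated the groups. Against early remission, 0 of 10 claudins were called where 0.0697% of all genes were, and 0.253% of genes did not overlap. Against TACI-Ig, 0 of 10 were called where 0.076% of genes were, and 0.114% did not overlap. The SAM-type test called 0 claudins in all 3, with 0, 34 and 12 genes in all. At an unadjusted p under 0.05, only Cldn10 against early remission differed, where it was lower by -0.19 ± 0.07 (SE; n = 6 and 8; limma adjusted p = 0.752). Cldn10 ran from 11.32 through 11.53 to 11.64 in late and from 11.44 through 11.69 to 11.86 in early remission, with overlap. Its late mean differed by 0.00374 from its mean over the pooled 30-week and TACI-Ig kidneys. The difference from early remission is thus no separate evidence of a change with time after triple therapy. Of all genes, 9 were higher and 37 were lower at that p against 30 weeks, 236 and 600 against early remission, and 52 and 33 against TACI-Ig.

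NZM2410 kidneys in remission differed from NZB/W kidneys in 5 of 10 claudins when set against late remission after TACI-Ig and in 2 of 10 when set against 30 weeks. These shares are below those of all genes, of which 59.5% and 62.8% were called. Against TACI-Ig, 4 claudins were higher (28.6% of all genes were) and 1 was lower (30.9%). Against 30 weeks, 1 was higher (31.5%) and 1 was lower (31.3%). The comparisons share the NZM2410 kidneys, so they are not independent. With each array centred on its median, 3734 of 9528 genes called against 30 weeks were higher, compared with 4975 of 9909 as deposited.

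Cldn19 and Cldn8 were called in both comparisons. Cldn19 ran from 6.09 through a median of 6.52 to 6.82 in NZM2410 kidneys. It measured 6.91, 6.86, 7.22, 7.35 and 6.86 in TACI-Ig kidneys 1 to 5 and 6.62 to 7.23 with a median of 6.80 at 30 weeks. All NZM2410 kidneys lay below all TACI-Ig kidneys, and they overlapped with the lower 30-week kidneys. The log2 difference was -0.54 ± 0.13 (SE; n = 6 and 5; limma adjusted p = 0.00256), 1.45-fold lower, against TACI-Ig and -0.39 ± 0.11 (SE; n = 6 and 7; limma adjusted p = 0.00825) against 30 weeks. Cldn19 was also lower under quantile normalization repeated over all arrays (-0.58 and -0.44, limma adjusted p = 0.00189 and 0.0027).

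Cldn8, the collecting duct claudin that brings Cldn4 to the junction, ran from 10.42 through a median of 10.64 to 11.01 in NZM2410 kidneys. TACI-Ig kidneys 1 to 5 measured 9.705, 10.23, 10.37, 10.27 and 10.21, all below the NZM2410 kidneys, and 30-week kidneys ran from 10.20 through 10.31 to 10.52. Non-overlap with TACI-Ig thus held for Cldn8 and Cldn19, 2 of 10 claudins, where 38.5% of all genes did not overlap. Against 30 weeks it held for 0 of 10, where 36.4% of all genes did not overlap. The difference of Cldn8 was 0.53 ± 0.13 (SE; limma adjusted p = 0.00365), 1.45-fold, against TACI-Ig and 0.35 ± 0.09 (SE; limma adjusted p = 0.00507), 1.27-fold, against 30 weeks. Under repeated quantile normalization the latter was 0.23 and was no longer called (limma adjusted p = 0.0668). Principal cell markers were also higher in NZM2410 kidneys, with scores of 9.46 to 9.91 against 8.81 to 9.34 at 30 weeks and 5 of 7 markers called higher, where 31.5% of all genes were. Against TACI-Ig, with scores of 9.24 to 9.43, 3 of 7 markers were called higher, where 28.6% of all genes were. The part of these markers in the Cldn8 differences was not tested.

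**Figure D2:**
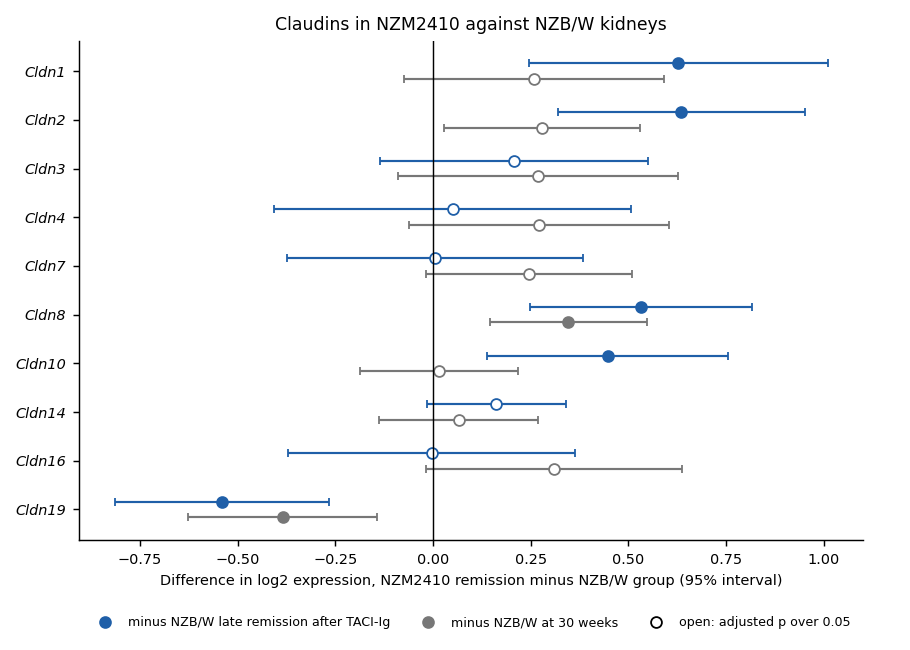
Difference in log2 expression between NZM2410 remission and 2 NZB/W groups (x axis) for each claudin (y axis), with points for the difference of means, bars for the 95% confidence interval of limma's fit and filled points for an adjusted p of at most 0.05. Cldn19 is the only claudin below 0 with filled points, at -0.54 and -0.39, and Cldn16 lies near 0 against TACI-Ig and at 0.31 against 30 weeks.

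Cldn1, Cldn2 and Cldn10 were higher in NZM2410 than in TACI-Ig kidneys, but were not called against 30 weeks. Cldn2 ran from 11.82 through 12.08 to 12.37 in NZM2410 kidneys, so that all but TACI-Ig kidney 2 (11.88) lay below this range. The difference was 0.64 ± 0.15 (SE; limma adjusted p = 0.00228) against TACI-Ig and 0.28 ± 0.12 (SE; limma adjusted p = 0.0505) against 30 weeks. The latter was 0.19 without 30-week kidney 2, which had the lowest Cldn2 of its group (11.22 against 11.76 to 11.98), and passed without 30-week kidney 5 or 6 or NZM2410 kidney 2 or 3 (0.31 to 0.33, limma adjusted p = 0.0314 to 0.0409). Repeated quantile normalization left 0.38 (limma adjusted p = 0.0359) against TACI-Ig and 0.08 (limma adjusted p = 0.57) against 30 weeks. Cldn1 ran from 7.78 through 8.37 to 8.78, with a difference of 0.63 ± 0.18 (SE; limma adjusted p = 0.00802) against TACI-Ig and 0.26 ± 0.16 (SE; limma adjusted p = 0.161) against 30 weeks. The groups overlapped, and without NZM2410 kidney 4, the lowest of its group, Cldn1 was also called against 30 weeks (0.38, limma adjusted p = 0.0288). Without NZM2410 kidney 3, the highest, that difference was 0.17 (limma adjusted p = 0.333), and without 30-week kidney 2 as well it was 0.14 (limma adjusted p = 0.453). Cldn10 ran from 11.44 through 11.72 to 11.88, and differed by 0.45 ± 0.14 (SE; limma adjusted p = 0.016) from TACI-Ig, and by 0.02 (95% confidence interval -0.19 to 0.22) from 30 weeks. Repeated quantile normalization left a Cldn10 difference of 0.21 from TACI-Ig (limma adjusted p = 0.209). The proximal tubule score of NZM2410 kidneys was 11.64 on average against 11.20 after TACI-Ig and 11.54 at 30 weeks, so it was higher together with Cldn2 and Cldn10 against TACI-Ig, and its part in those differences was not tested.

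Of the other claudins of the thick ascending limb, neither Cldn16 nor Cldn14 was called in either comparison. Cldn16, the pore partner of Cldn19, differed by -0.003 (95% confidence interval -0.37 to 0.36) from TACI-Ig and by 0.31 (-0.02 to 0.64, limma adjusted p = 0.0922) from 30 weeks. Cldn16 ran from 8.51 through 8.73 to 9.63, and its highest value was that of kidney 3, without which the differences were -0.16 and 0.15. Whether the Cldn19 and Cldn16 differences were unequal was not tested. The pore blocker Cldn14 differed by 0.16 and 0.07 (limma adjusted p = 0.106 and 0.567), and by 0.37 against TACI-Ig under repeated quantile normalization (limma adjusted p = 0.00404). Of the marker genes of the same segment, 5 of 6 were called higher in NZM2410 kidneys in each comparison, where 28.6% and 31.5% of all genes were. Among them were Kcnj1, which encodes the potassium channel ROMK (1.26 and 1.03), and Slc12a1, which encodes the sodium-potassium-chloride cotransporter (0.74 and 0.70). The thick ascending limb score was 11.98 to 12.16 in NZM2410 and 11.33 to 11.84 in NZB/W kidneys.

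Cldn3, Cldn4 and Cldn7 were not called in either comparison. Their differences from 30 weeks were 0.27, 0.27 and 0.25 (limma adjusted p = 0.176, 0.142 and 0.0962), and kidney 3 contributed to each. Cldn4 measured 9.497 in kidney 3 and 8.40 to 8.94 in the other NZM2410 kidneys, Cldn3 measured 9.37 and 8.39 to 8.80, and Cldn7 measured 9.89 and 8.96 to 9.35. Without kidney 3, the differences were 0.13 for Cldn3, 0.11 for Cldn4 and 0.13 for Cldn7. Cldn7 was called without 30-week kidney 2 (0.30, limma adjusted p = 0.0394) or NZM2410 kidney 5 (0.32, limma adjusted p = 0.0352). The SAM-type test called 8 of 10 claudins against 30 weeks, 7 of them higher, so the number of claudins called there depended on the test. Limma's share of 62.8% of all genes comes from another test and cannot be set beside the count of 8. That count is not read as particular to claudins.

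Genes around the claudins also differed between NZM2410 and NZB/W kidneys, at shares to be read against those of all genes in the same direction. Against TACI-Ig, 28.6% of all genes were called higher and 30.9% lower (59.5% in either direction). Against 30 weeks, 31.5% were called higher and 31.3% lower (62.8% in either direction). Of 24 measured tight junction partners, 11 were higher and 1 was lower against TACI-Ig, and 13 were higher and 1 was lower against 30 weeks. The median difference of the list was 0.20 and 0.15, against 0.00 and 0.02 over all genes. Pard3, a polarity scaffold of the junction, was higher by 0.83 and 0.69, and Ocln, which encodes occludin, by 0.66 and 0.48. F11r, which encodes the adhesion molecule JAM-A, was higher by 0.51 and 0.40. Tjp1, which encodes the scaffold ZO-1, was lower by 0.21 against 30 weeks and was not called against TACI-Ig (-0.19, limma adjusted p = 0.145). Among 12 genes of magnesium and calcium transport, 7 and 10 were higher and 1 was lower in each comparison, with median differences of 0.42 and 0.43. Cnnm2, a magnesium transport protein of the distal nephron, was higher by 0.97 and 0.86. Casr, the calcium-sensing receptor that induces Cldn14, was higher by 0.91 and 0.75. Kcna1, a potassium channel gene of the distal convoluted tubule, was lower by 0.70 and 0.61. Of 15 claudin regulators, 5 were higher and 2 were lower in each comparison. They included Stk39, the kinase SPAK, which was higher by 0.64 and 0.85, and Snai1, which encodes Snail and was lower by 0.31 and 0.29. Of 11 other claudin family genes (9 claudins, Cldnd1 and Cldnd2), 1 was higher and 7 were lower against TACI-Ig, and 2 were higher and 4 were lower against 30 weeks. Cldn6, a claudin of the developing kidney, was higher by 0.75 and 0.81, and Cldn18, best known from lung and stomach, was lower by 0.75 and 0.61.

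Within NZB/W groups, from kidney to kidney, 5 of the 6 pairs among Cldn1, Cldn2, Cldn8 and Cldn10 varied together, and so did Cldn4 and Cldn7. Of 45 pairs, 6 were correlated over the 26 NZB/W kidneys after group means were removed (Benjamini-Hochberg adjusted permutation p of at most 0.05, values permuted within groups, two-sided), and all 6 correlations were positive. An unadjusted p under 0.05 was reached by 14 pairs. The share of all gene pairs that reach this level is not given here, so the count is not read as particular to claudins. Cldn8 and Cldn10 had r = 0.763 (rho = 0.76, permutation p = 2e-05, adjusted p = 0.0009), although the former is a collecting duct gene and the latter is expressed upstream of it. The value was 0.703 without the 2 kidneys farthest from the median, and 0.74, 0.91 and 0.811 within the 30-week, early-remission and triple therapy groups. Cldn1 correlated with Cldn10 (r = 0.669, rho = 0.719, adjusted permutation p = 0.00247), with Cldn8 (r = 0.596, rho = 0.559, adjusted permutation p = 0.026) and with Cldn2 (r = 0.568, rho = 0.566, adjusted permutation p = 0.031). Cldn2 correlated with Cldn10 (r = 0.687, rho = 0.616, adjusted permutation p = 0.026), but Cldn2 and Cldn8 gave only r = 0.309. Separately, Cldn4 and Cldn7 had r = 0.661 (rho = 0.648, adjusted permutation p = 0.026), although the 30-week kidneys alone gave -0.075. Without the 2 farthest kidneys, the other 5 values ran from 0.512 to 0.67. With the triple therapy late-remission kidneys left out, the calls of Cldn1 with Cldn2 (adjusted permutation p = 0.0828), Cldn1 with Cldn8 (0.164) and Cldn4 with Cldn7 (0.0622) were lost, and those of Cldn10 with Cldn1, Cldn2 and Cldn8 were not.

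**Figure D3:**
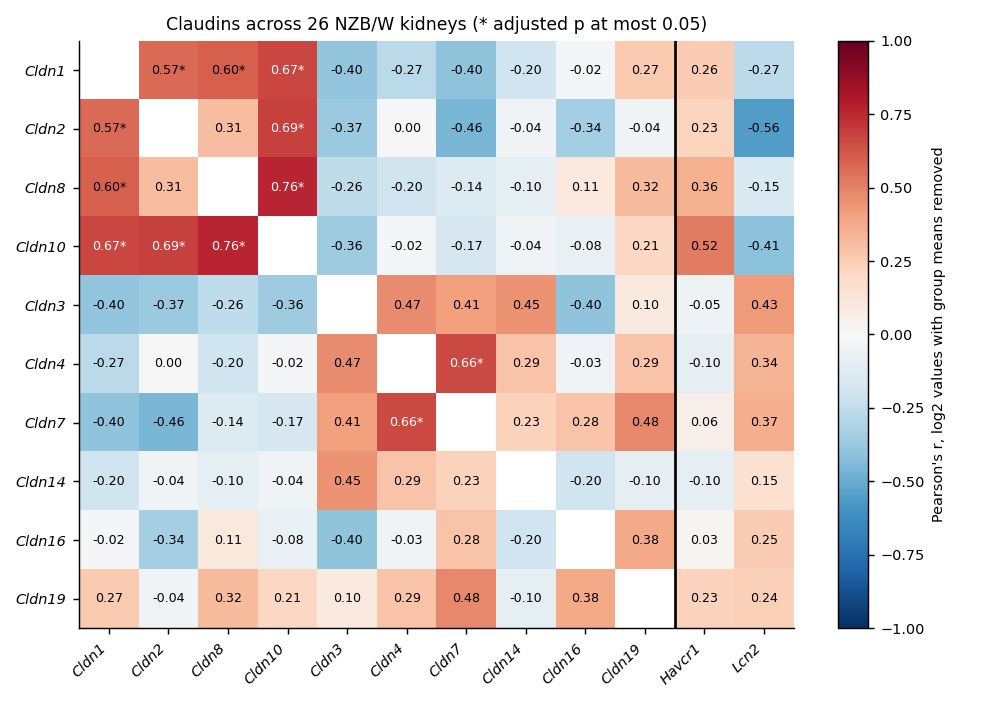
Pearson's r between claudins, and between claudins and the injury genes Havcr1 and Lcn2 right of the line, in the 26 NZB/W kidneys, after subtraction of group means. Stars mark pairs with an adjusted permutation p of at most 0.05, namely 6 of 45 claudin pairs and 0 of 20 pairs with an injury gene, and red is positive and blue is negative.

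Cldn3 stood outside both sets. Its correlation with Cldn4 was 0.474 and fell to 0.077 without the 2 farthest kidneys, since early-remission kidney 2 was the highest of its group in both genes (9.51 in Cldn3 against 8.05 to 8.63 in the others, and 9.05 in Cldn4 against 8.11 to 8.57). The pore partners Cldn16 and Cldn19 had r = 0.378 and were not called. Cldn7 went against Cldn2 (r = -0.46, rho = -0.462, adjusted permutation p = 0.134), a relation that did not pass but had the same sign within the 30-week (-0.88), early-remission (-0.788), triple therapy (-0.794) and NZM2410 (-0.721) kidneys. No r was computed for the TACI-Ig kidneys, as their group had fewer than 6. There, kidney 2 was highest in Cldn2 (11.88) and lowest in Cldn7 (8.91). Kidney 4 was high in both genes (11.63 and 9.71), and kidney 5 was low in both (11.12 and 9.02). In NZM2410 kidneys, the pairs gave other values, such as 0.229 for Cldn8 with Cldn10 and -0.066 for Cldn1 with Cldn2. With 6 kidneys, 0 of 45 pairs passed adjustment by an exact permutation test and 4 were under an unadjusted p of 0.05, and the difference between the strains was not tested.

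Mean levels of segment markers were set against the claudins after the values had been seen. Of 50 pairs of a claudin and a segment score, only Cldn2 with the proximal tubule score passed (r = 0.806, rho = 0.699, adjusted permutation p = 0.002), and r was 0.742 without the 2 farthest kidneys. Cldn10 and Cldn1 had r = 0.601 and 0.51 with that score (adjusted permutation p = 0.065 for both), and Cldn7 had -0.57 with it (adjusted permutation p = 0.0772) and 0.501 with the principal cell score. In NZM2410 kidneys the proximal tubule score gave 0.482 with Cldn2 and -0.849 with Cldn1 (exact permutation p = 0.0417, adjusted p = 0.26). The genes most like each claudin over the same 26 kidneys, as a description without a test, were Aldh8a1, Pbld1 and Aldh3a2 for Cldn2 (r of 0.919, 0.891 and 0.891). They were Mrpl44, Efhd1 and Rreb1 for Cldn10 (0.885, 0.857 and 0.845), Rdh10, Schip1 and Fzd1 for Cldn1 (0.831, 0.798 and 0.782) and Jpt2, Sumo3 and Sel1l3 for Cldn8 (0.851, 0.802 and 0.786). For Cldn7 they were Wfdc2, Limd1 and Zc3h10 (0.877, 0.801 and 0.779), for Cldn4 Ier2, Zfp653 and Plec (0.795, 0.773 and 0.772), and for Cldn3 Slc5a10, Cfap126 and Slc23a3 (0.86, 0.85 and 0.845). Slc5a10 and Slc23a3 encode transporters known from the proximal tubule. For Cldn16 they were Pik3r3, Fam118b and Pigf (0.807, 0.807 and 0.806), for Cldn19 Ttll12, AI661453 and Ccdc181 (0.76, 0.758 and 0.75), and for Cldn14 2010003K11Rik, A430033K04Rik and Ralgds (0.765, 0.697 and 0.693).

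Cldn1 was chosen as the injury-linked member, although the paper lists both Cldn1 and Cldn7 as upregulated in nephritis of NZM2410 and NZW/BXSB mice. In NZB/W nephritis neither passed the paper's filter, and the q-value was above 0.05 for Cldn1 and below it for Cldn7. Each claudin was therefore set against Havcr1, which encodes the proximal tubule injury protein KIM-1, and Lcn2, which encodes the injury-induced lipocalin NGAL. In NZB/W kidneys, after subtraction of group means, Cldn1 had r = 0.255 with Havcr1 (rho = 0.298) and r = -0.265 with Lcn2 (rho = -0.188), with adjusted permutation p = 0.498 for both. None of the 20 pairs passed adjustment, and 3 were under an unadjusted p of 0.05. These were Cldn2 with Lcn2 (r = -0.56), Cldn10 with Havcr1 (r = 0.523) and Cldn3 with Lcn2 (r = 0.428), each with adjusted permutation p = 0.167. Without the 2 kidneys with the most extreme Lcn2, Cldn2 gave -0.336, and without those with the most extreme Havcr1, Cldn10 gave 0.436. Cldn4 with Lcn2 had r = 0.342 over all 26 kidneys (adjusted permutation p = 0.4) and 0.639 without the 2 kidneys with the most extreme Lcn2. Within groups, where p-values are unadjusted and this pair was singled out from 20 after its values were seen, it had 0.948 in early remission (exact permutation p = 0.000471) and 0.84 in late triple therapy remission (exact permutation p = 0.0653), but -0.548 at 30 weeks (exact permutation p = 0.206).

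In NZM2410 kidneys, the injury genes and the claudins of several segments were high in the same kidney. Kidney 3 had a Lcn2 value of 10.14 and a Havcr1 value of 9.43, where the other 5 kidneys had 6.0 to 8.65 and 6.69 to 7.25. Cldn1 (8.78), Cldn3, Cldn4, Cldn7, Cldn8, Cldn16 and Cldn19 (6.82) all had their highest NZM2410 value there, whereas Cldn2 (11.89) and Cldn10 (11.59) were each the second lowest of the group. The correlation of Cldn4 with Lcn2 was 0.957 (exact permutation p = 0.00278, adjusted p = 0.0556 over 20 pairs) and was 0.902 over the other 5 kidneys. Cldn1 with Lcn2 had r = 0.893 (exact permutation p = 0.0181, adjusted p = 0.0833) and 0.868 without kidney 3. Cldn16 with Havcr1, by contrast, went from 0.917 to -0.289, and Cldn7 with Lcn2 from 0.713 to 0.033. None of the 20 pairs passed adjustment, and 6 were under an unadjusted p of 0.05. Between the strains the 2 injury genes went different ways. Havcr1 was lower in NZM2410 than in 30-week kidneys (-1.83 ± 0.37, SE, limma adjusted p = 0.00059). The Lcn2 means were 7.57 and 6.82 in the same order, and the Cldn1 means were 8.36 and 8.10. Of 10 injured tubule markers, these 2 included, 6 had higher means in NZM2410 kidneys. Limma called 1 of the 10 higher and 2 lower, where 31.5% and 31.3% of all genes were.

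**Figure D4:**
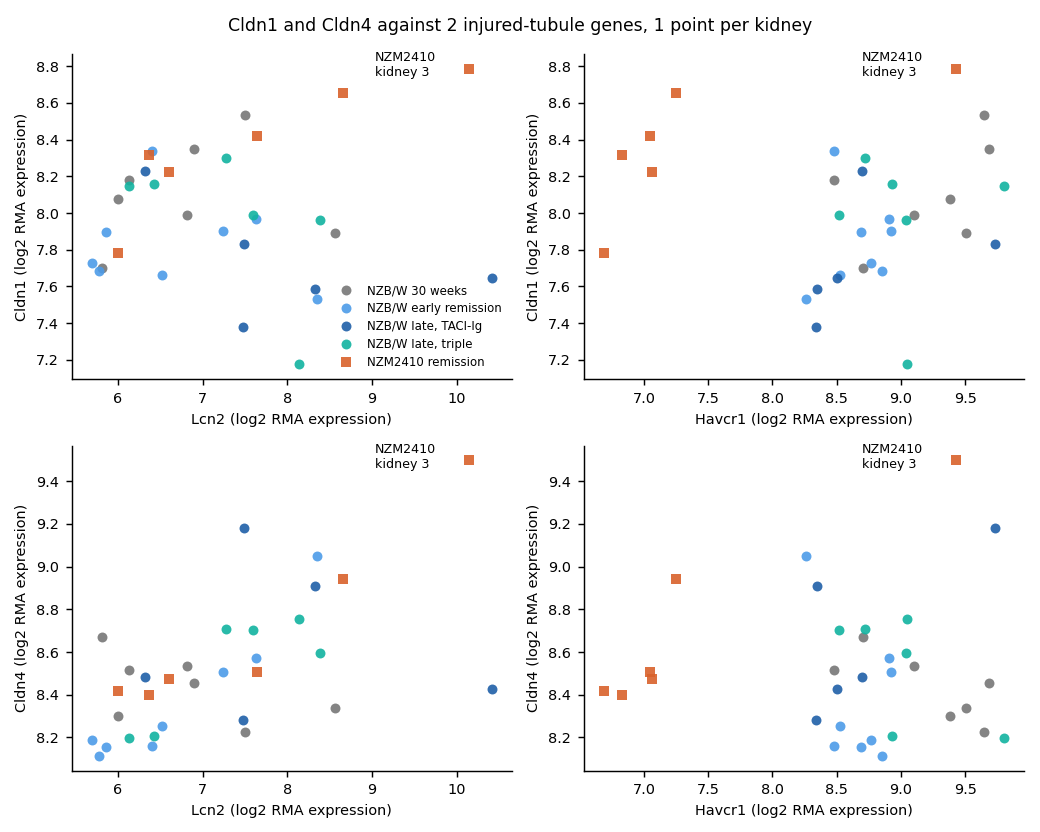
Cldn1 (upper panels) and Cldn4 (lower panels) against Lcn2 and Havcr1, all as log2 RMA expression with 1 point per kidney, round for NZB/W and square for NZM2410. In NZM2410 kidneys both claudins are highest at the highest Lcn2 (8.78 and 9.497 at 10.14), while the NZB/W kidney with the highest Lcn2, at 10.41, has a Cldn1 value of 7.64 and a Cldn4 value of 8.42.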

How the data were processed

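Whole-kidney RNA of 32 mice was hybridised to Affymetrix arrays, and the 5 groups follow GEO's labels. The authors deposited RMA log2 values (software version not given in the sources used here), per their methods after joint normalization and batch correction. The batches are not named. The table holds 16539 probe sets, with a single one for each Entrez gene. The tests used the 15780 with a gene name and left out 64 array controls and 695 unnamed probe sets. Precision is limited by the number of arrays.

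In 7 comparisons, fitted separately with limma 3.58.1 (R 4.3.3; lmFit and eBayes), p-values were adjusted over all genes by Benjamini-Hochberg, with a threshold of 0.05. Correlations used 100000 permutations within groups, or all permutations within a group (Python 3.11.15, numpy 2.4.6, scipy 1.17.1). The limma and correlation code was tested on simulated data. Members, lists, named genes and alternatives were chosen with earlier results of these data known. The text names every member, Havcr1, Lcn2, at most 4 list genes per comparison and the 3 genes most like each claudin. Other genes named (Kcnj1, Slc12a1) and the segment scores, which are means over markers without the claudins, were chosen after their values were seen. Replicate numbers of the titles did not pair the kidneys. Sequences are from RefSeq (GRCm38.p6). Alternatives were other normalizations, filters, variance models, a SAM-type test (100 permutations) and kidneys left out.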

Additional observations from a re-analysis of the deposited data

Results flagged for a closer look

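Dixon's test at the 95% level was run for each claudin in each group, 50 groups of values in all, and 7 held a kidney apart from the others, where chance alone gives about 1 in 20. In late remission after triple therapy, kidney 8 had a Cldn1 value of 7.18, against 7.96 to 8.30 in the others, and a Cldn14 value of 5.60, against 4.82 to 5.11. At 30 weeks, kidney 2 had a Cldn2 value of 11.22, against 11.76 to 11.98, and a Cldn7 value of 9.40, against 8.94 to 9.12. In early remission, kidney 2 had a Cldn3 value of 9.51, against 8.05 to 8.63. After TACI-Ig and CTLA4Ig, kidney 1 had a Cldn8 value of 9.705, against 10.21 to 10.37. In NZM2410 remission, kidney 3 had a Cldn16 value of 9.63, against 8.51 to 8.86. No cause was tested for any of these kidneys.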

How the results depend on the processing

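Most results kept their direction and their side of the threshold under the alternatives run, and no called difference was reversed. The count of claudins called in NZM2410 against 30-week kidneys, 2 of 10, was 1 under repeated quantile normalization, 8 by the SAM-type test and 4 without 30-week kidney 2 and NZM2410 kidney 3. It ran from 2 to 3 with 1 kidney left out, and was 0 under the filter of the methods (adjusted p at or under 0.001, fold above 1.4 or below 0.7). That filter also gave 0 of 10 against TACI-Ig, where 5 were called and 5 remained the count with any 1 kidney left out. The filter left 3153 genes against TACI-Ig and 2628 against 30 weeks. Without the filter, limma called 59.5% and 62.8% of all genes in the same order. The main counts of 5 and 2 claudins are to be read against these shares, which do not apply to the alternatives. For the other NZM2410 counts in this paragraph, apart from the filter, the share of all genes is not given. Those counts are therefore not read as particular to claudins. In TACI-Ig against 30 weeks, the count of 0 was 1 by the SAM-type test and ran from 0 to 2 with 1 kidney left out, the 2 without TACI-Ig kidney 2. All other comparisons of NZB/W kidneys gave 0 claudins under each alternative run. The count of genes called over the array was 123 with array weights and 52 by the SAM-type test in early remission against 30 weeks, and 65 and 34 in late against early remission after triple therapy, where limma called 0 and 11. Cldn14 fell below the filter on dim genes, so that alternative gave it no value. Replicate numbers were shared by name only. With the number as a replicate block, 3 claudins were called against 30 weeks and 4 against TACI-Ig in NZM2410 kidneys and 0 in the other comparisons that share numbers. Same-numbered kidneys had correlations from -0.714 to 0.344. The count of correlated claudin pairs was 6 under quantile normalization and 6 without 30-week kidney 2, and 4 without the triple therapy late-remission kidneys. That last setting added Cldn7 with Cldn19 (r = 0.689, adjusted permutation p = 0.0243) and ended the calls of Cldn1 with Cldn2 (r = 0.60, adjusted permutation p = 0.0828), Cldn1 with Cldn8 (r = 0.532, 0.164) and Cldn4 with Cldn7 (r = 0.684, 0.0622). The cause of these changes was not tested.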
